A study of Mus musculus with 17 samples.

Results

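The 6 peptide genes Gast, Cck, Gip, Cartpt, Gal and Npy were followed through single pancreatic cells of mice given streptozotocin (STZ), which enters beta cells, the source of insulin, and kills them. They were chosen by name as gut and neural peptide hormones and were all present among the 40824 genes of the deposited UMI table, in which a unique molecular identifier (UMI) stands for 1 captured RNA molecule. A UMI of at least 1 of the 6 genes was found in 1605 of 2999 cells.

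The cells came from Ngn3-Cre; Rosa-RFP mice, in which the Ngn3 promoter drives Cre and so marks cells of the endocrine progenitor lineage and their descendants with a red fluorescent protein. RFP+ cells were sorted and then picked by mouth pipette, so the shares of cell classes in a library were set by sorting and picking as well as by the tissue. STZ was given once, at 200 mg/kg, to males aged 2 months. Cells with insulin implants were taken on day 6 (D6), day 12 (D12, 2 libraries), day 30 (D30) and day 42 (D42), and at month 2 (M2), month 5 (M5) and month 9 (M9). The M9 mice had been without the implant for the last 2 months. A further 2 libraries came from month 2 without implants (M2_NoIns). Untreated pups gave 1 library at postnatal day 3 (P3), 2 at P12 and 1 at P21, and 3 control libraries came from age-matched adults injected with citrate buffer. Every group thus carried both Ngn3-Cre and Rosa-RFP. The labels do not say whether libraries of a group came from separate animals, so p-values measure the spread between libraries only.

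Gastrin and cholecystokinin end in the same active sequence and act on related receptors. Gastrin drives acid secretion in the stomach, and in rodents it is also made for a time by fetal islets. Cholecystokinin and glucose-dependent insulinotropic polypeptide (GIP) are released by endocrine cells of the small intestine after a meal. The first empties the gall bladder and stimulates acinar enzyme secretion, and GIP strengthens insulin release. CART (from Cartpt), galanin and neuropeptide Y are peptides of neurons that islet cells can also make, and galanin and neuropeptide Y both restrain insulin release.

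The 250 bases ahead of the annotated start of the gastrin-family genes are shown because these genes carried large differences between STZ and control beta cells and the stretches hold no annotated exon. They are from RefSeq on GRCm38.p6, read 5′ to 3′ on the gene's own strand, from chr11:100334157-100334406 (plus strand) for Gast and chr9:121495695-121495944 (minus strand) for Cck. Capitals mark matches on either strand to TATAAA or CACCTG in Gast, and to TGACG or CACCTG in Cck.
Gast: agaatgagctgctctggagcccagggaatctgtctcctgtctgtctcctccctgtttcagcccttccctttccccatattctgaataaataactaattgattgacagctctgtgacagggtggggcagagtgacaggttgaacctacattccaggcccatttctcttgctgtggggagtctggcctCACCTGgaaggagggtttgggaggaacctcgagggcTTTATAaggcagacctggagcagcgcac
Cck: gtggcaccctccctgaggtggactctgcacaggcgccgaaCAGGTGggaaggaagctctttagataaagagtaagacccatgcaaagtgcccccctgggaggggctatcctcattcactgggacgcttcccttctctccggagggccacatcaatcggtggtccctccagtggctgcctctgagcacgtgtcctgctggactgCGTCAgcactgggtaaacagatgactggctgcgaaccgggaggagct
In Gast, TATAAA lay on the opposite strand with its first base at position -28 and CACCTG at -64, counted back from the start. In Cck, TGACG lay on the opposite strand at -47 and CACCTG on the opposite strand at -210. Neither gene held TAATTA, and no match overlapped another. Of 27025 promoters of the same length, 13.0% held TATAAA, 17.9% TGACG, 4.90% TAATTA and 17.1% CACCTG. The same stretches ahead of Gip, Gal and Npy held none of the 4 motifs. On GRCm38, Gast lies at chr11:100334407-100336996 (plus), Cck at chr9:121489824-121495694 (minus), Gip at chr11:96024545-96030831 (plus), Cartpt at chr13:99898489-99901091 (minus), Gal at chr19:3409915-3414544 (minus) and Npy at chr6:49822710-49829507 (plus). No other annotated gene overlapped any of them.

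Cells were clustered with the 6 genes left out and named from markers. This gave 1005 beta, 615 alpha, 265 delta, 156 PP, 770 acinar and 112 ductal-like (Krt19) cells, 39 immune cells and 37 unnamed cells led by Ghrl, of which 36 were from P3. The acinar class stands against the endocrine label of the sort, since all 10 acinar markers were detected there. Mafa, a marker of mature beta cells, had no UMI in any beta sum, adult controls included, so it was not read as a sign of maturity. Library totals ranged from 1420536 to 26298456 UMIs, and cells had a median of 61193 UMIs.

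The 6 genes fell into different cells. Gast was seen in 15.7% of beta cells (95% Clopper-Pearson interval 13.5% to 18.1%), 8.46% of alpha cells, 3.64% of acinar cells and 3.57% of ductal cells. Cartpt was seen in 14.3% of beta cells, 7.80% of alpha cells, 4.81% of acinar cells and 1 ductal cell. These shares of cells with a UMI were set against acinar cells as a class that would not be thought to make either peptide, although acinar cells were deeper, with a median of 132217.5 UMIs against 61213 in beta cells. By library the acinar shares were uneven: Gast was seen in 18.5% of acinar cells at M9 and 14.3% at M5, and Cartpt in 29.6% at M9, 17.9% at M5 and 15.1% in the second D12 library, while both were at 0 in the acinar cells of controls 1 and 2. At M9 the share of alpha cells with Gast was 15.2%, below that of acinar cells. Npy was seen in 4.08% of beta cells and in 0 of 615 alpha cells, where a count of 0 allows a share of up to 0.598% (upper Clopper-Pearson bound). Gal was seen in 98.7% of acinar cells and in 19.6% to 28.8% of the cells of each other named class. Cck was found in 72 cells and Gip in 138 cells of all kinds. Intervals cover counting error only.

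**Figure D1:**
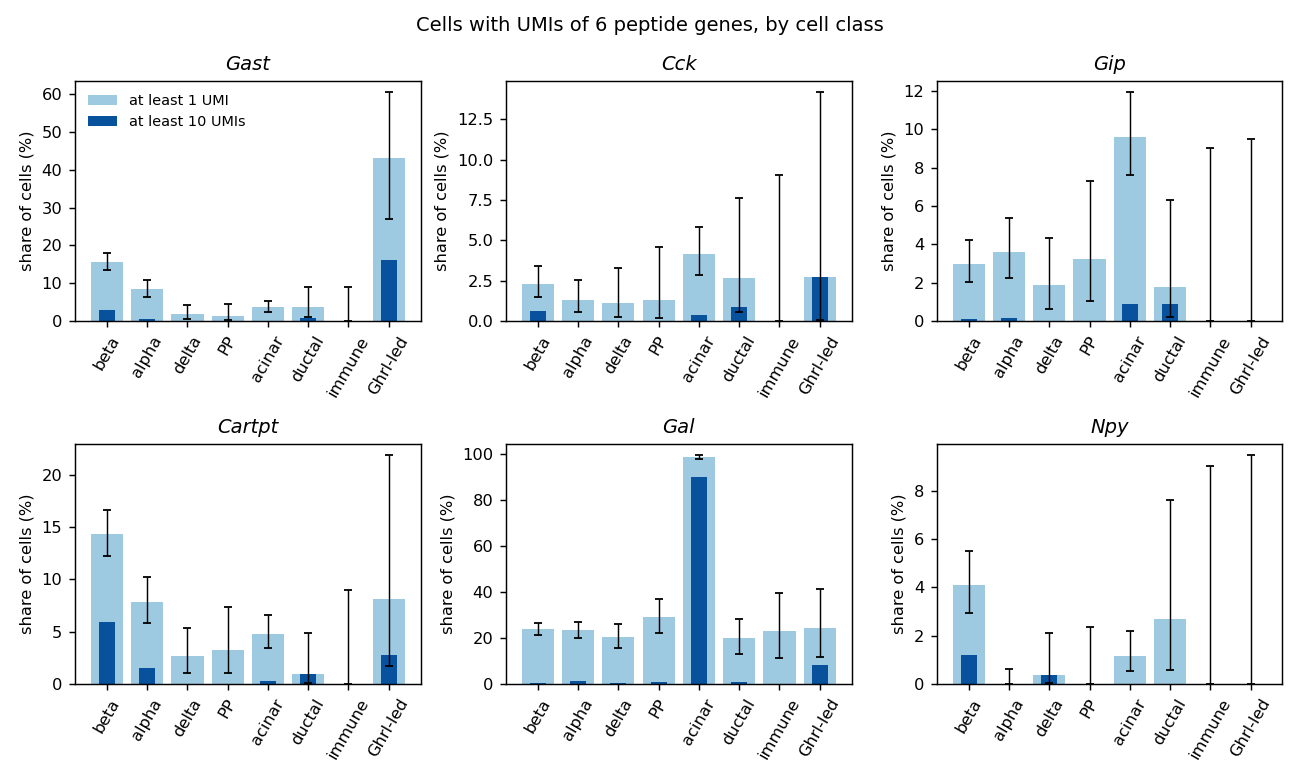
Share of cells (%) with at least 1 UMI (wide bars, with 95% Clopper-Pearson intervals as error bars) and with at least 10 UMIs (narrow bars) of each of the 6 genes, by cell class over all libraries; the y axes differ between genes. Gal stands at 98.7% in acinar cells, Gast and Cartpt are highest among the named classes in beta cells at 15.7% and 14.3%, and Npy is at 0 in alpha cells.

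High counts per cell sharpened this picture. Of 40 cells with at least 10 Gast UMIs, 30 were beta cells, 3 alpha cells and 6 cells of the Ghrl-led cluster, with a highest count of 133 in a beta cell. Of 72 cells with at least 10 Cartpt UMIs, 59 were beta cells and 9 alpha cells. The rest were 2 acinar cells (up to 108 UMIs), 1 ductal cell (117) and 1 cell of the Ghrl-led cluster (155). All 13 cells with at least 10 Npy UMIs held at least 1000 Ins2 UMIs per 100000, and 12 of them were beta cells. No acinar cell reached 10 UMIs of Gast, whereas 692 of 770 reached 10 UMIs of Gal.

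Gast, the gastrin gene, was higher in beta cells after STZ in every implanted library than in any control. In CPM (UMIs per 1000000 UMIs of the summed beta cells), the 8 implanted STZ libraries had a lowest value of 17.9, a median of 40.9 and a highest value of 148, against 4.58, 2.87 and 1.46 in controls 1, 2 and 3. The groups did not overlap. The log2 fold change was 4.13 ± 0.58 (SE, 8 libraries against 3; edgeR quasi-likelihood test, Benjamini-Hochberg adjusted p = 0.000359). It was called with each of the 11 libraries left out, at 3.77 to 4.57. In the same fit 2.83% of 10697 genes tested were called, and of the 4 members that passed the low-count filter, Gast and Cartpt were called, both upwards. The median log2 fold change of the 4 was 4.23, against 0.00 over all genes. The filter kept Cck through its STZ libraries alone and dropped Gip and Npy, the latter nearly missing after STZ. This median therefore does not describe the 6 genes as a set.

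More STZ beta cells held Gast, and its mean count in those cells was higher with cells pooled over libraries. The share of beta cells with a Gast UMI averaged 37.9% ± 10.2 over the implanted STZ libraries with at least 10 beta cells (SD, n = 7), against 5.74% ± 0.954 in control libraries (SD, n = 3). With UMIs drawn down to 25470 in every cell, the pooled shares were 30.9% of 246 STZ beta cells and 4.83% of 352 control beta cells. With at least 3 UMIs asked for, the mean shares were 22.5% in STZ libraries and 2.24% in controls. STZ beta cells with at least 10 Gast UMIs numbered 24 of 259, against 3 of 369 in controls. Beta cells with Gast had a mean of 10.6 and a median of 4 UMIs in implanted STZ libraries (103 cells), against a mean of 3.91 and a median of 3 in controls (23 cells). The library medians ran from 2 to 19 after STZ and from 2 to 3 in controls, so they overlapped. The D12 libraries (2.5 and 2) and D42 (2.5) lay below the 3 of controls 1 and 2. A higher count per Gast-holding cell was thus not seen in every STZ library.

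**Figure D2:**
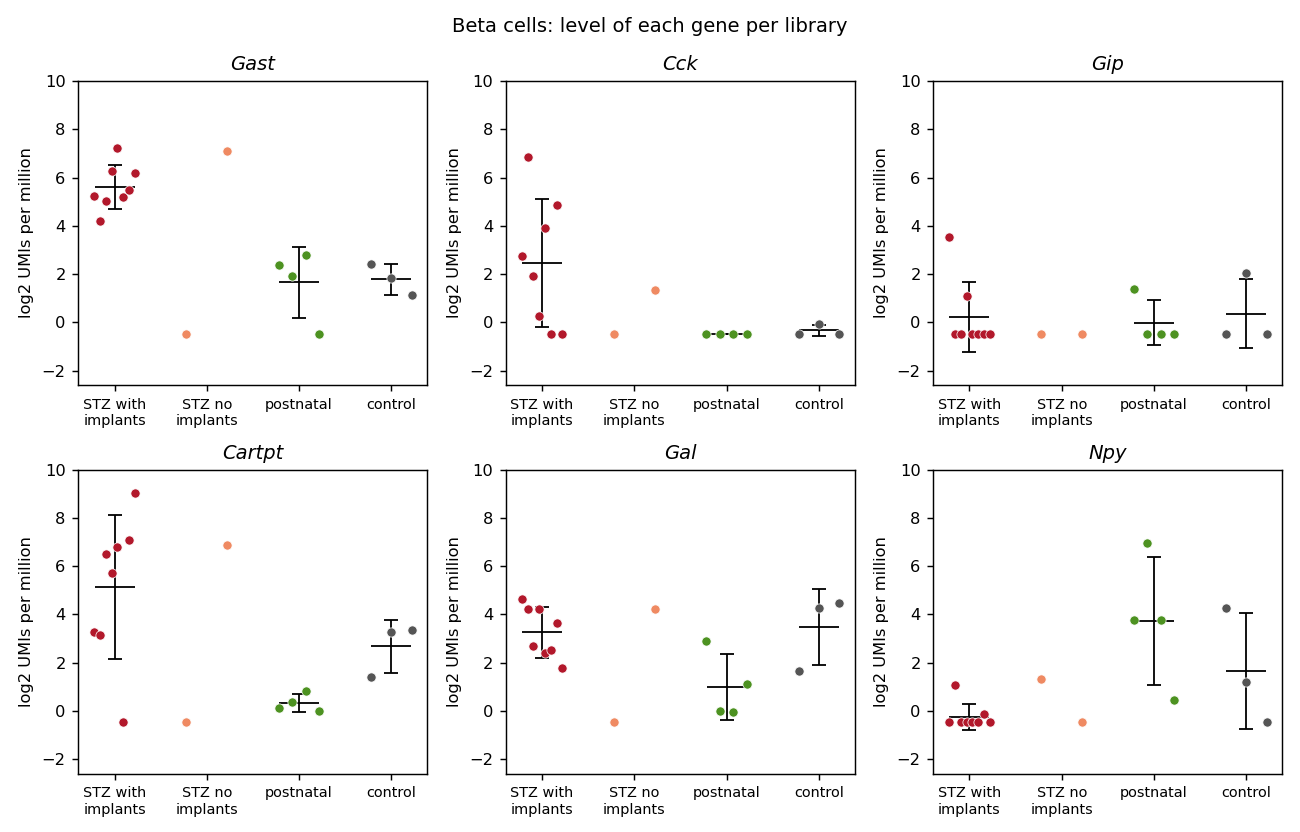
Level of each of the 6 genes in the summed beta cells of each library, as log2 CPM with a prior count of 2; points are libraries, and the line with error bars is the mean ± SD of groups with over 2 libraries. All 8 implanted STZ libraries lie above the 3 controls for Gast, 2 STZ libraries at month 2, the implanted one and 1 of those without implants, lie below them for Cartpt, and the highest Npy value is from a postnatal library.

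Gast did not follow a line over time. Its beta-cell CPM was 37.4 on D6, 17.9 and 32.2 in the D12 libraries, 77.6 on D30, 148 on D42, 35.4 at M2, 44.4 at M5 and 73.1 at M9. The slope on log2 days was 0.19 ± 0.14 (SE, n = 8; edgeR, adjusted p = 0.999). In that fit 0.0% of 6658 genes passed, with 219 at an unadjusted p under 0.05. M2 rested on 8 beta cells, 1 of which held all 14 of its Gast UMIs. In contrasts of single times with controls, Gast passed on D42 (5.55 ± 0.94, edgeR adjusted p = 0.0136) and at M9 (4.31 ± 0.92, edgeR adjusted p = 0.0444). Both calls depended on the controls: without control 3 the adjusted p was 0.0752 on D42, and without control 1, 2 or 3 it was 0.0963, 0.181 and 0.159 at M9. Without control 2 it was 0.0665 on D42. These single-library times borrow their spread from replicated groups. In those contrasts the share of genes called was 0.0676% on D6, 0.526% on D12, 0.15% on D30, 0.3% on D42, 0.0901% at M2, 0.21% at M5 and 0.541% at M9, out of 13318 genes each.

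Without implants, the beta cells of the 2 month-2 libraries had 0 and 138 Gast CPM, from 5 and 9 cells. The second library lay above every control and the first held no Gast UMI. The fitted change from control was 4.23 ± 0.88 (edgeR, adjusted p = 0.0179, 2.72% of genes called), with adjusted p values of 0.0683 without control 2 and 0.0594 without control 3. Set against the implanted M2 library of 8 cells, the difference was 0.83 ± 1.24 (edgeR, adjusted p = 0.827, 0.12% of genes called).

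In alpha cells the difference of Gast from control did not pass. STZ alpha sums had a lowest value of 0, a median of 5.25 and a highest of 10.1 CPM, against 1.85 and 0.716 CPM in controls 1 and 2. In 7 of 8 STZ libraries the alpha value exceeded both controls, and in 1 it lay below both. The log2 difference was 2.00 ± 1.13 (edgeR, adjusted p = 0.895). That comparison called 0.0% of 11160 genes with edgeR, against 4 genes with DESeq2 and 657 at an unadjusted p under 0.05. The STZ effect on Gast was 1.93 ± 1.22 larger in beta than in alpha cells on the log2 scale, and this difference did not pass (edgeR interaction, adjusted p = 0.771, 0.327% of genes called). In acinar cells Gast reached 34 UMIs over 642 STZ cells and 0 UMIs over 98 control cells. The pooled level was at least 1.36-fold higher with a floor of 3 UMIs over the control group, a bound for counting error only.

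In postnatal beta cells Gast levels overlapped those of adult controls. Postnatal sums had 4.48 CPM at P3, 3.09 and 6.25 at P12 and 0 at P21, against 4.58, 2.87 and 1.46 CPM in controls. The difference was -0.04 ± 0.95 (log2, edgeR, adjusted p = 0.993, 0.459% of 12426 genes called). The Ghrl-led cells of P3 were richer: 16 of 36 (44.4%) held Gast, with up to 75 UMIs in a cell. Ghrl encodes ghrelin, the hormone of epsilon cells.

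Cck UMIs in beta cells came almost wholly from STZ libraries, and from few cells. Over all classes, cells with Cck were unevenly spread over the sets of cells described with Gip. The part of those sets in the values below was not tested. Of 259 STZ beta cells, 20 held Cck, with 259 UMIs in all, against 2 of 369 control beta cells with 2 UMIs in all. The pooled level was 166 times that in controls (exact 95% interval for counting error 45.4 to 1375). M5 gave 142 of the STZ UMIs, and without it the ratio was 103 (27.9 to 860). Both control UMIs were from control 2. Without that library the level after STZ was at least 71.4-fold higher with a floor of 3 UMIs over the control group, again for counting error only. By library, beta CPM was 6.03 on D6, 114 and 3.09 on D12, 0.476 on D30, 14.4 on D42, 0 at M2, 28.0 at M5 and 0 at M9, against 0, 0.239 and 0 in controls 1, 2 and 3. In 6 of 8 STZ libraries the value exceeded every control. The log2 change was 7.43 ± 2.03 and missed the threshold (edgeR, adjusted p = 0.0546). It passed with DESeq2 (7.57, adjusted p = 0.0212) and without the low-count filter (7.36, edgeR adjusted p = 8.81e-06). DESeq2 called 569 of 12855 genes and the unfiltered fit 491 of 19814, against 303 of 10697 in the main fit. The D12 contrast was called (9.00 ± 1.51, edgeR adjusted p = 0.0132), where a single D12 beta cell held 79 of 83 UMIs of its library. Without any 1 control, the adjusted p was 0.0542 to 0.0575.

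STZ beta cells with Cck often held Gast as well. Among STZ beta cells pooled over libraries, 15 of 20 with a Cck UMI had a Gast UMI (75.0%), against 88 of 239 without Cck (36.8%). In controls, 0 of 2 beta cells with Cck and 23 of 367 without it held Gast. The parts of library and depth in this overlap were not tested. All 363 postnatal beta cells were at 0 for Cck, which allows a share of up to 1.01% (upper bound). Across all classes 89.7% of Cck UMIs came from 2 cells, which are described with Gip.

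Gip was concentrated in 2 cells of the D6 library, which held 95% of its UMIs. The first, clustered with ductal cells, had 3099 Gip, 2783 Cck, 1032 Sct (secretin) and 83 Gast UMIs among 49610 UMIs, so that Gip and Cck were its most abundant genes. It also had 553 Spp1 UMIs, a ductal marker, but 9 of Krt19 and 38 of Prss2. The second, clustered with acinar cells, had 5194 Gip, 463 Cck and 664 Sct UMIs among 345996, with 6418 UMIs of Prss2, a trypsinogen gene, and 326 of Gal. No other cell had 100 Gip UMIs, and both lacked Cartpt and Npy. GIP, secretin and cholecystokinin are hormones of gut endocrine cells. Of the gut epithelial markers, Tff3 had 147 UMIs in the first cell and 19 in the second, and Lgals4 had 27 and 12. Cdx2, an intestinal transcription factor, had no UMI in either cell. Isl1, Rfx6 and Neurod1 had 38, 8 and 12 UMIs in the first cell and 55, 36 and 30 in the second. The tissue of origin of these cells was not tested.

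The remaining 136 cells with Gip had at most 46 UMIs and fell mainly into 10 sets of cells whose raw file names were the same up to the cell's own number. What these names stand for is not given in the sources used here. In the sets that contained the 2 rich cells, 31 of 48 and 48 of 64 cells held Gip. File names were known for 2091 cells in 36 sets, whose names began with 1 of 10 prefixes, numbered here 1 to 10, and the sets with Gip had prefixes 4 and 5. With prefix 4, 56 of 334 cells held Gip (16.8%). With prefix 5, 76 of 334 cells from sets marked l2 held it (22.8%), against 0 of 306 from sets marked l1, which included cells of the same D6 library. A further 6 cells with Gip were in no named set. Cck was also frequent in the prefix 4 set with the cell richest in Cck, in 20 of 48 cells, and 3 of the 6 Cck-holding D6 beta cells were from these 2 sets. In beta cells, Gip was seen in 10 of 29 D6 cells, all from those sets, in 3 of 28 D30 cells and in 14 of 138 cells of control 2. It was also seen in 3 of 128 P3 beta cells, which have no named set, with 20 UMIs in all and 11 in the highest, the only beta cell with at least 10. The part of these sets in the Gip shares was not tested, and the shares were not read as a difference between STZ and control. Cck also differed between sets of other libraries. In the first D12 library, 5 of 30 cells held it in the set with the 79-UMI cell. Its other sets had 1 of 69, 0 of 52 and 0 of 67. At M5, 6 of 38 and 4 of 66 cells held Cck in the sets with up to 47 UMIs in a cell, against 1 of 49.

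**Figure D3:**
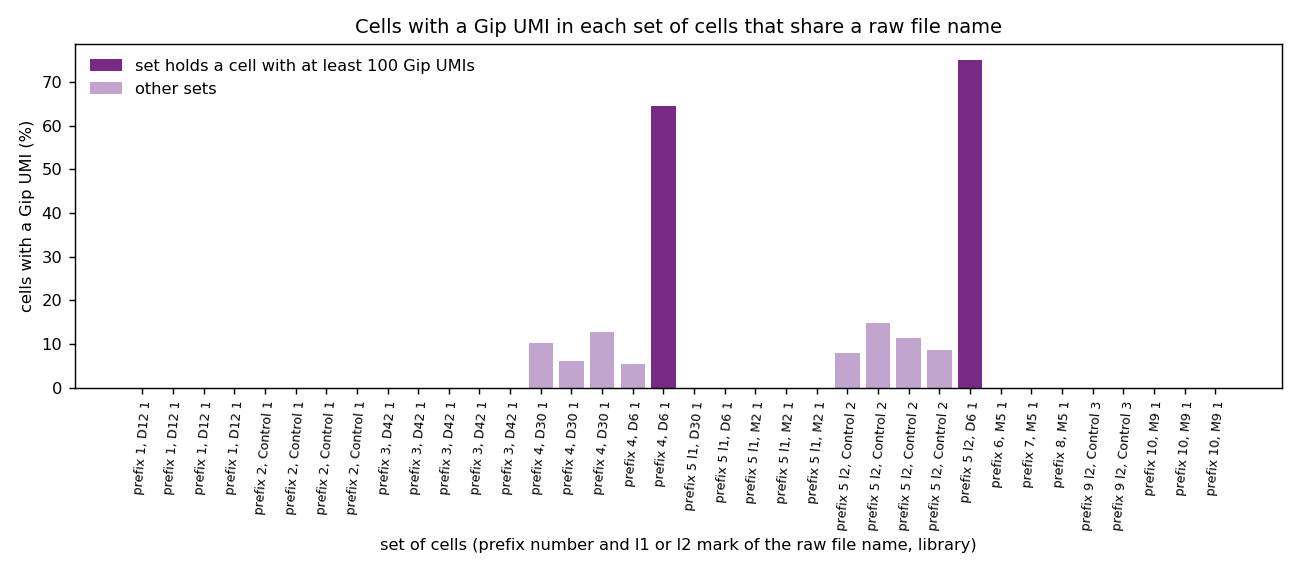
Share of cells (%) with a Gip UMI in each set of cells that share a raw file name up to the cell's number, with the number given to its prefix, its l1 or l2 mark where the name has one, and its library. Of the named sets, only those with prefixes 4 and 5 hold Gip, and the 2 sets with the Gip-rich cells reach 64.6% and 75.0%.

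Cartpt was higher in most STZ libraries, with the highest levels at M9. Its beta CPM was 9.04 on D6, 8.26 and 90.8 on D12, 51.4 on D30, 110 on D42, 0 at M2, 136 at M5 and 526 at M9, against 1.93, 8.96 and 9.47 in controls 1, 2 and 3. In 5 of 8 STZ libraries the value exceeded every control, D6 and the first D12 library lay within the control range and M2 lay below it. The log2 change was 4.33 ± 1.14 (SE, 8 against 3; edgeR, adjusted p = 0.0439). The call was lost without D12 replicate 2, D42, M5 or M9 (edgeR adjusted p = 0.0599, 0.0713, 0.0529 and 0.0519), and without control 1, 2 or 3 (0.239, 0.175 and 0.139). It was also lost when classes were set by the most abundant hormone (adjusted p = 0.0738).

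At M9, 47 of 56 beta cells held Cartpt (83.9%), with a median of 18 UMIs in those cells and 758 in the highest. In control 2, the control with the most such cells, 12 of 138 held it, with a median of 5 UMIs. The M9 contrast was 6.32 ± 1.03 (edgeR, adjusted p = 0.00769) and was called with each control left out, at 5.73 to 6.87. M9 was a single library and its implants had been withdrawn, so time and withdrawal cannot be told apart there. At month 2 without implants, 0 of 5 and 5 of 9 beta cells held Cartpt, and the change from control was 3.14 ± 0.98 (edgeR, adjusted p = 0.105).

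**Figure D4:**
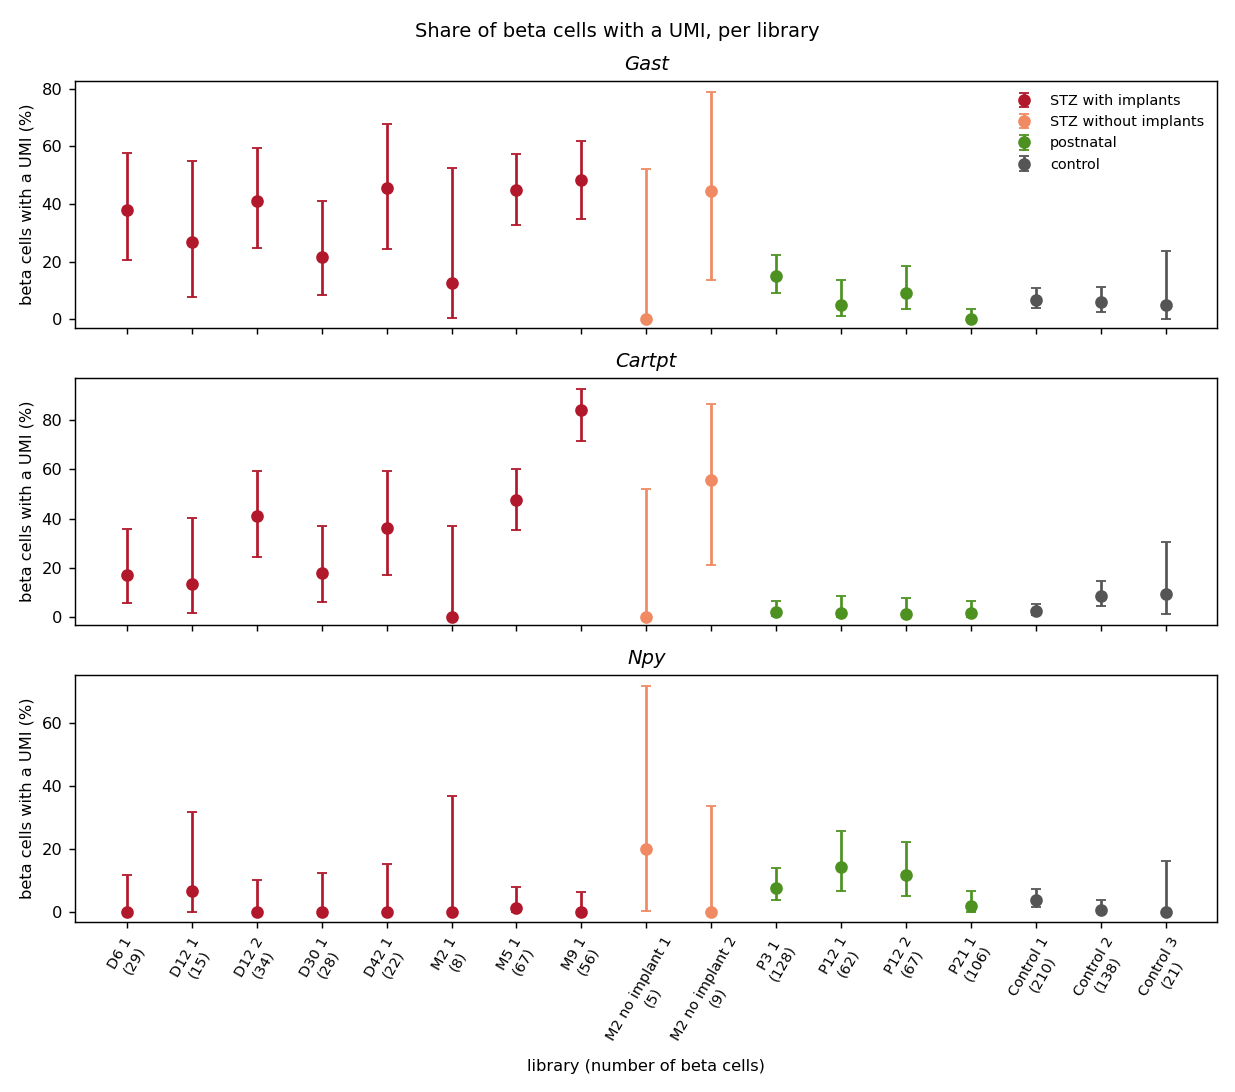
Share of beta cells (%) with at least 1 UMI of Gast, Cartpt and Npy in each library (points), with 95% Clopper-Pearson intervals as error bars and the number of beta cells below each library. Cartpt reaches 83.9% at M9, and Gast lies between 12.5% and 48.2% in implanted STZ libraries against 4.76% to 6.67% in controls.

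Cartpt was also found outside beta cells. Alpha cells held it in every implanted STZ library and in neither control. Outside M9 these were 1 to 3 cells per STZ library, on D30 and D42 with 1 UMI each. Over all libraries, 468 of 615 alpha cells and all 265 delta cells were rich in another class's hormone or Prss2, at 1000 UMIs per 100000 or more. The part of such mixed RNA in the Cartpt counts was not tested. The 8 STZ alpha sums had a lowest value of 0.450, a median of 2.72 and a highest of 35.6 CPM, the last from M9, where 27 of 79 alpha cells held it (34.2%), with a median of 2 UMIs. In the same library it was seen in 8 of 27 acinar cells (29.6%), 5 of 23 delta cells and 1 of 4 PP cells. Controls 1 and 2 had 0 UMIs in 33 alpha cells each. Pooled, STZ alpha cells had 255 UMIs, at least 14.0-fold above control with a floor of 3 UMIs over the control group. Of these UMIs, 214 were from M9 and 102 from 1 of its cells. The bound covers counting error only, not the spread between cells or libraries. The fitted log2 difference, no bound since the controls were at 0, was 7.34 ± 2.69 and did not pass (edgeR, adjusted p = 0.734). It was 7.37 to 7.56 in 8 leave-outs, and without M9 or D12 replicate 1 Cartpt did not pass the low-count filter. The STZ effect on Cartpt in beta minus alpha cells was -3.21 ± 5.19 and did not pass either (edgeR interaction, adjusted p = 0.948), at -3.75 to -1.73 with a library left out. The untreated P21 library had Cartpt in 3 of 82 alpha cells, so its presence was not particular to STZ mice.

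In postnatal beta cells Cartpt was low. It had 0.373 CPM at P3, 0.563 and 1.04 at P12 and 0.264 at P21, each below all 3 controls. The log2 difference of -3.80 ± 0.86 missed the threshold (edgeR, adjusted p = 0.0677), but passed with DESeq2 (-3.84, adjusted p = 0.00179) and without the low-count filter (-3.79, edgeR adjusted p = 0.0047). DESeq2 called 297 of 13135 genes and the unfiltered fit 534 of 19709, against 57 of 12426 in the main fit.

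Gast and Cartpt occurred in overlapping beta cells. Among STZ beta cells with a Cartpt UMI, 68 of 113 held Gast (60.2%), against 35 of 146 without Cartpt (24.0%). The share was higher with Cartpt in 8 of the 9 libraries that had at least 5 beta cells with Cartpt, controls 1 and 2 among them. D42 was the exception, with 3 of 8 against 7 of 14. Depth moved with both genes: beta cells with Gast had a median of 72349 UMIs against 56707.5 without it, and beta cells with Cartpt had 73523 against 56411. Its part in the overlap was not tested.

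Markers of PP cells were also higher in the STZ beta sums. The summed level of the 4 PP markers was 8970 to 33753 CPM in implanted STZ libraries, against 2734 to 5529 CPM in controls. Gast was present in 1.28% of the 156 PP cells named by cluster, below its share in beta cells. These PP cells were shallower, with a median of 37951.5 UMIs against 61213 in beta cells. The share also depended on how PP cells were named. With classes set by the most abundant hormone, it was 22.2% of 9 PP cells in control 2 and higher at M9. It was 0 in both D12 libraries, at M2 and at M5. The part of PP cells or their RNA in the Gast difference was not tested. Among STZ beta cells rich in Gcg, Sst, Ppy, Pyy or Prss2, 33 of 90 held Gast (36.7%), against 70 of 169 other STZ beta cells (41.4%). The 10 acinar markers summed to 16967 to 31592 CPM in STZ beta sums against 8939 to 29915 CPM in controls and the 8 gut epithelial markers to 32.8 to 137 against 43.0 to 62.5 CPM. Of the gut list, Cdx1, Cdx2, Fabp1 and Fabp2 were at 0 in the control sums. The raw file names also moved with group: within prefix 5 alone, where control 2 alone can be set beside 3 small STZ sums, the Gast difference was 2.92 ± 1.80 (edgeR, adjusted p = 1.0).

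Npy ran the other way, present in postnatal and some control beta cells and nearly missing after STZ. STZ beta cells had 2 Npy UMIs in 259 cells, against 271 UMIs in 369 control cells, of which 218 were in a single cell of control 1. By library, 6 of 8 implanted STZ sums were at 0 and the highest was 1.38 CPM, against 18.5, 1.55 and 0 CPM in controls 1, 2 and 3. The groups overlapped. Npy did not pass the low-count filter. Without it the log2 change was -5.62 (edgeR, adjusted p = 0.000315). That unfiltered fit called 491 of 19814 genes and was not repeated with a library left out.

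Postnatal beta cells held Npy in 10 of 128 cells at P3, 9 of 62 and 8 of 67 at P12, and 2 of 106 at P21. The levels were 12.8 CPM at P3, 122 and 13.0 at P12 and 0.660 at P21, which overlapped the controls. The difference was 2.14 ± 1.19 (log2, edgeR, adjusted p = 0.529). It rested on single libraries: without P12 replicate 1 it was 0.0042 and without control 1 it was 4.85, neither called (edgeR, adjusted p = 0.999 and 0.306). Without the low-count filter it passed (2.095, edgeR adjusted p = 4.3e-06). That fit called 534 of 19709 genes, against 57 of 12426 with the filter, and was not repeated with a library left out. Outside beta cells, a single delta cell at M5 held 154 UMIs, and acinar and ductal cells had at most 2 UMIs.

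Gal, the galanin gene, was an acinar gene in these cells. Acinar cells contributed 98.2% of its 63955 UMIs. Summed acinar cells of the implanted STZ libraries had a lowest value of 336, a median of 525 and a highest of 622 CPM, against 388 and 1124 CPM in controls 1 and 2. Control 2 stood above all STZ libraries and control 1 within their range. The log2 difference was -1.27 ± 0.40 (edgeR, adjusted p = 0.138, 0.0418% of 11972 genes called), and without control 2 it was 0.07 (edgeR, adjusted p = 0.946). The 10 acinar cells of the second M2_NoIns library had 756 CPM, and the 12 acinar cells of P3 had 131 CPM. The P3 cells were named by cluster only: with classes set by the most abundant of Ins2, Gcg, Sst, Ppy and Prss2, P3 held 0 acinar cells. Their 10 acinar markers summed to 93561 CPM, against 197772 to 301611 CPM in the other acinar sums. Of the 3 acinar clusters, the smallest, with 94 cells, had 172 Gal CPM, against 622 and 582 CPM in those of 346 and 330 cells.

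Gal in other classes was set against acinar markers. Per 1000 UMIs of 10 acinar markers, acinar sums had 1.20 to 3.73 Gal UMIs, with a median of 2.01 over 12 libraries. Beta sums had 0.0851 to 1.42, with a median of 0.415 over 14 libraries. In each of the 10 libraries with both classes the ratio was lower in beta than in acinar cells, and the same held in 11 of 11 for alpha, 10 of 10 for delta, 6 of 6 for PP and 4 of 4 for ductal cells. The part of acinar RNA in the Gal UMIs of these classes was not tested. In beta cells its STZ difference was -0.27 ± 0.64 (log2, edgeR, adjusted p = 0.951) and changed sign under other settings. The Ghrl-led cells of P3 went the other way, with 3.14 Gal UMIs per 1000, against 1.40 in the acinar cells of the same library. Those acinar cells were themselves low in acinar markers, which limits them as a reference.

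**Figure D5:**
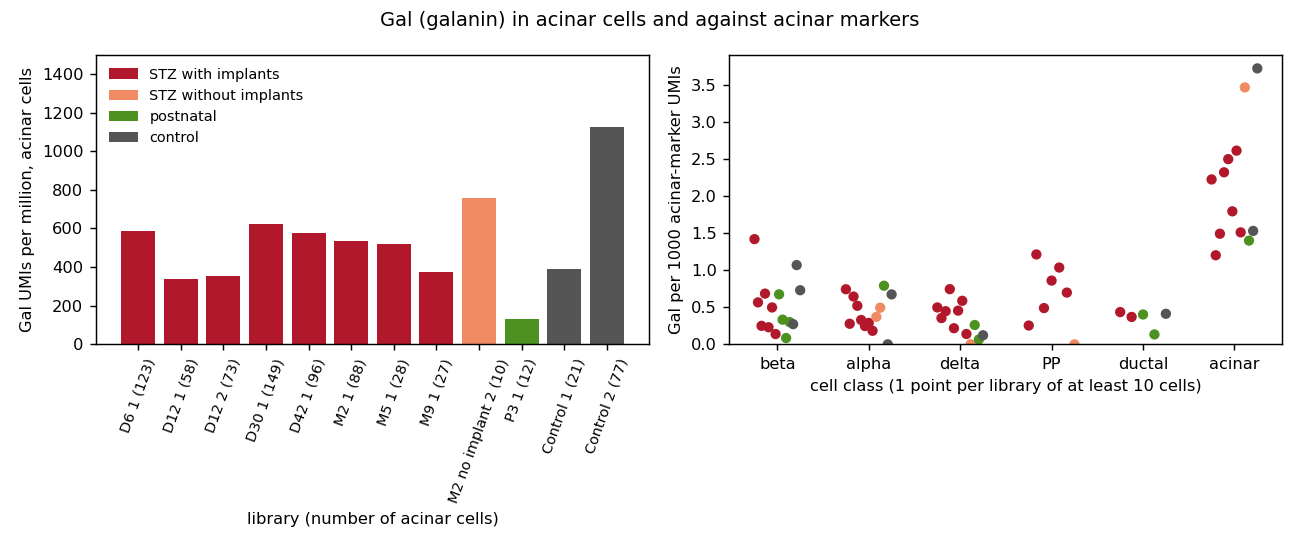
Left, Gal level (UMIs per 1000000) in summed acinar cells of each library; right, Gal UMIs per 1000 UMIs of 10 acinar markers in the sums of each class, a point per library. Control 2 is highest on the left at 1124 CPM, and on the right acinar sums (1.20 to 3.73) have higher ratios than most sums of other classes.

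Receptors for these peptides had class patterns of their own. Cckar, the cholecystokinin receptor of acinar cells, was seen in 97.7% of acinar cells and 18.7% of beta cells. Gipr was seen in 44.8% of beta cells and at most 16.0% of any other of the 6 pancreatic classes, and Galr1 in 56.7% of beta cells and at most 12.8%. Of the 11 receptors listed, 3 were tested in STZ against control beta cells and none passed with edgeR.

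Other peptide genes moved in the same beta-cell comparison. Of 34 listed peptide hormones, 11 were tested. Ppy (pancreatic polypeptide, log2 change 2.56 ± 0.40) and Pyy (peptide YY, 2.22 ± 0.42) rose, and Ucn3 (urocortin 3, which marks mature beta cells in mice) fell (-3.21 ± 0.36; edgeR, adjusted p = 0.00109, 0.00471 and 3.65e-05). The median of the 11 was 1.35, against 0.00 over all genes. It covers only hormones with enough counts to be tested and does not describe all 34. Of 15 genes of peptide processing, all were tested, and Chgb (chromogranin B, 1.67 ± 0.21) and Pam, the enzyme that amidates peptides such as gastrin, cholecystokinin and neuropeptide Y (1.14 ± 0.18), rose (edgeR, adjusted p = 0.000138 and 0.000847). None of these lists had a called gene in the alpha, postnatal or acinar comparisons with edgeR. Those comparisons called 0.0%, 0.459% and 0.0418% of all genes tested, so lists of this size could hardly show a call there.

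Over the 14 beta sums with at least 10 cells, the genes whose log2 CPM was most like that of Gast were Prss23 (Pearson r = 0.931), Ndufc2 (0.925) and Egln3 (0.922). For Cartpt they were Cpne4 (0.926), Scg5 (0.919) and Sil1 (0.915). Over 63 sums of all classes, Gal was most like Spink3 (0.955), Cel (0.954) and Reg1 (0.954), which are all abundant acinar genes. Gip was most like Clca3 (0.833) and Muc2 (0.818), genes of intestinal goblet cells, and then Ido1 (0.67). The D6 acinar sum among these 63 holds the Gip-rich acinar cell described above. Sums of a library share cells' handling and depth, and these values are descriptions.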

How the data were processed

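The authors deposited UMI counts per gene and cell, made by modified STRT-seq with 18 and 4 cycles of PCR. The mm10 build, UMI-tools 0.5.0, featureCounts 1.5.3, TopHat2 2.1.0 and SAMtools 1.3.1 are named in the submitters' processing notes; any filter on cells is not given in the sources used here. All cells were kept and no doublet caller was run. Rows without a symbol (6, or 0.00025% of UMIs) were left out.

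Clusters came from 20 neighbours over 15 components of 300 variable genes (Leiden, resolutions 0.03, 0.3 and 0.15; Python 3.11.15, scikit-learn 1.9.0, leidenalg 0.10.2). Counts were summed per library and class, at least 10 cells except for beta cells, and tested with edgeR 4.0.16 (TMM, filterByExpr, quasi-likelihood, adjusted p under 0.05) in R 4.3.3. SE is the log2 fold change over the root of F. DESeq2 1.42.0 and the other alternatives are in the closing section. Prefix numbers stand for the starts of raw file names. The tests were checked on simulated data.

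The members and lists, and the tests, were chosen with earlier results of these data known. The 6 genes are all named; listed genes are named where called, up to 6 per list; the most alike are the 3 with highest Pearson r of log2 CPM (prior count 2). Replicate numbers did not pair the samples. The sequence ahead of Cartpt is not printed. The list of neuronal and glial markers is not reported here.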

Additional observations from a re-analysis of the deposited data

Results flagged for a closer look

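In groups of 4 to 10 libraries, 22 groups were examined for a library far from the others by Dixon's criterion, and 7 values stood apart. The criterion flags about 1 in 20 groups of normally spread values. Many libraries here were tied at 0 UMIs, so that rate cannot be set against the 7. Values are log2 CPM with a prior count of 2. The D6 library stood apart in 4: Cck in alpha cells (1.46) and in acinar cells (4.97), and Gip in beta cells (3.53) and in acinar cells (8.39). It contains the 2 cells rich in Gip and Cck, and for acinar cells 1 of them is part of the sum. Gip in beta cells of P3 was 1.37, where the other 3 postnatal libraries held no Gip. Npy in beta cells of the first D12 library was 1.07, from 1 UMI in 15 cells. Npy in acinar cells at M5 was 1.18, with a nearest value of 0.03.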

How the results depend on the processing

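Of 251 recomputed values, 211 kept direction and call. The Gast difference in STZ beta cells was 3.77 to 4.57 with a library left out; within file name prefix 5 it was 2.92. Cck, short of the threshold, passed without the filter (7.36), without cells rich in another class's hormone (6.33), with DESeq2 (7.57) and with thinned cells (7.60), and was 6.14 to 9.13 with a library left out. Cartpt lost its call with hormone-based classes (4.37), with the replicate block (4.79, adjusted p = 0.269) and in 7 of 11 leave-outs (3.37 to 4.95). With the replicate block Gast was 3.68 (adjusted p = 0.0136), and 84 genes were called in place of 303, against 569 with DESeq2 and 491 without the filter. Same-numbered libraries correlated at -0.081 to 0.123.

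Gal in beta cells was -0.83 to 0.19 with a library left out, and turned to 0.69 with the block and to 0.76 with hormone-based classes; in alpha cells it turned to -1.27 with those classes. In acinar cells it was -1.93 to 0.068 with a library left out. Postnatal Cartpt passed without the filter (-3.79) and with DESeq2 (-3.84). With a control left out, Cck on D12 was 8.08 to 10.95, Gast on D42 5.40 to 6.01, Gast at M9 4.18 to 4.77 and Gast without implants 4.08 to 4.68. With at least 3 UMIs, Gast shares were 22.5% in STZ and 2.24% in controls. The cause of these changes was not tested. Delta and PP cells were not tested, with fewer than 2 control sums of 10 cells; alpha and interaction fits without mixed cells were not run. Small numbers of beta cells after STZ, down to 8 in an implanted library, limit single times.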
